A study of Rattus norvegicus with 6 samples.

Results

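The 50 genes described here carry out 2 steps of the cell cycle: 27 act in DNA replication (S phase genes, *Mcm2* to *Ung* of the list) and 23 act in chromosome segregation and cell division (mitotic genes, *Mki67* to *Plk1*). They were taken by symbol from tables of 17315 genes, and 49 of the 50 have values, namely all 27 S phase genes and 22 mitotic genes. Expression of *Cenpe*, a kinetochore motor, was not analysed here.

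Expression was measured by RNA-seq in adult rat hippocampal neural stem cells (NSCs), a line cloned from rats of an inbred strain, so that all samples come from 1 line. They received by transfection either a control siRNA duplex (siControl, 3 samples) or a duplex against *Derl1* (siDerl1, 3 samples), and *Derl1* encodes Derlin-1, an endoplasmic reticulum membrane protein that takes part in the degradation of misfolded proteins. All 6 samples were then kept for 2 days with BMP4, the signal used to bring these NSCs toward quiescence, in a medium that still held the mitogen bFGF at a reduced concentration. Proliferating cultures without BMP4 were not analysed here, so the values below give no level of cycling before BMP4.

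Expression is given in TPM, a unit scaled by transcript length in which all transcripts of a sample sum to 1000000, so that levels of different genes can be compared. TPM keeps no record of sequencing depth, and the depth and counting error of each sample are therefore unknown. The labels number the samples 1 to 3 in both groups without saying whether they are separate cultures, so the p-values below measure the spread between these samples, which may be technical. Values of a gene are listed in the order of sample number within each group.

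*Derl1* itself stood at 122, 132 and 128 TPM with siControl and at 44.9, 70.8 and 74.0 TPM with siDerl1, with no overlap between the groups. Its difference was −1.03 ± 0.18 (SE) on the log2(TPM + 1) scale, with an adjusted p of 0.497 in limma across all genes and of 0.00884 when the sample number was added as a replicate block. The NSC genes *Sox2*, *Nes* and *Vim* were abundant, and 8 NSC markers summed to between 4116 and 6009 TPM. The 8 microglial markers summed to 5.01 to 9.36 TPM and the 6 endothelial and fibroblast markers to 1.42 to 2.61 TPM, while astrocyte markers (566 to 824 TPM, mostly *S100b*), oligodendrocyte lineage markers (726 to 946 TPM) and neuronal markers (81.2 to 102 TPM, mostly *Tubb3*) were also present. The defining markers *Cx3cr1* (microglia), *Mog* (oligodendrocytes), and *Cdh5*, *Dcn* and *Lum* (endothelium and fibroblasts) were listed at 0 in all 6 samples.

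Before S phase the helicase subunits are loaded on replication origins, and during S phase polymerases, clamps and ligases copy the DNA while enzymes of nucleotide synthesis supply the building blocks. Entry into S phase is driven by cyclin E with its kinase and by E2F transcription factors, which bind the promoters of many replication genes. Genes of mitosis peak later in the cycle, and many of their promoters hold a cell cycle homology region (CHR), bound by the DREAM and MuvB complexes, close to CCAAT boxes bound by NF-Y. In the hippocampus, BMP signalling is known to hold NSCs out of the cycle, and transcripts of both gene groups are in common use as measures of proliferation.

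The promoters of the S phase and mitotic genes differed in these sequence elements. RefSeq windows of 300 bases (250 before and 50 after the annotated start, rat assembly GRCr8) matched 22 of the 27 S phase genes and 19 of the 23 mitotic genes, *Cenpe* among them. Both strands were searched for E2F sites (TTTCCCGC, TTTGGCGC, TTTGCCGC or TTTCGCGC), for CHR (TTTGAA or TTTAAA) and for the CCAAT box (CCAAT). E2F matches were present in 12 of 22 S phase genes with a window (54.5%) and 1 of 19 mitotic genes (5.26%), *Cdk1*. The share was 4.35% of the 7953 tested genes with a window and 2.37% of all 27457 genes with a window. A gene with several windows counted if any of them matched. A CHR match was present in all 19 mitotic genes and in 5 of 22 S phase genes (22.7%). The share was 18.4% of tested genes and 29.65% of all genes with a window.

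CCAAT was also frequent, in 15 of 19 mitotic genes (78.9%) and 12 of 22 S phase genes (54.5%). The share was 38.9% of tested genes and 39.6% of all genes with a window. CHR and CCAAT stood together in 15 mitotic and in 2 S phase genes, and in 12.8% of all genes with a window. The 30 CHR matches of the mitotic genes lay at a median of −38 bases from the start (first base of the match), with 25 of them between 100 bases before and 50 bases after it. The 20 E2F matches of the S phase genes had a median position of −44.5, with 12 in the same stretch. The median GC content was 60.3% in the S phase windows, 59.7% in the mitotic windows and 61.7% in those of the tested genes. These are matches of letters, not measured binding, and a window without a match shows only that those letters are not in it.

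The 150 bases before the start are printed 5′ to 3′ on the gene's strand for 3 replication genes, because they show both patterns found among the S phase genes: *Mcm2* (chr4:122918095-122918244, minus strand) and *Mcm7* (chr12:22163179-22163328, minus strand), helicase subunits with E2F matches, and *Gins2* (chr19:65548053-65548202, minus strand), a helicase cofactor without one. Coordinates are of GRCr8, and capitals mark E2F and CCAAT letters in either orientation. In *Mcm2* the capitals are 2 E2F matches on opposite strands that overlap, and in *Mcm7* the E2F match (nearest to the start) runs into a CCAAT box.
Mcm2: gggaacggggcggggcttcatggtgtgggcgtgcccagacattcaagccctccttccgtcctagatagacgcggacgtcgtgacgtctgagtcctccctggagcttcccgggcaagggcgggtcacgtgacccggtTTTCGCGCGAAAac
Mcm7: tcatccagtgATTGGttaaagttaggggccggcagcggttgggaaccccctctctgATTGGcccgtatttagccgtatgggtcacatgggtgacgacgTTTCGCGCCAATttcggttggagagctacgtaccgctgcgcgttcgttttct
Gins2: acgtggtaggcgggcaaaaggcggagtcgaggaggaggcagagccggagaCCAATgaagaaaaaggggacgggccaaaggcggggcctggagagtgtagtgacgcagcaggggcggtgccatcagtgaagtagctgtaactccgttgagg

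The same stretch is printed for 5 mitotic genes to show CHR beside CCAAT: *Cdk1* (chr20:19265143-19265292, plus strand), the mitotic kinase and the only mitotic gene with an E2F match, *Ccnb1* (chr2:33655226-33655375, minus strand), its cyclin, *Top2a* (chr10:84473094-84473243, minus strand), *Plk1* (chr1:186147508-186147657, plus strand) and *Mki67* (chr1:199952594-199952743, minus strand). Capitals mark CHR and CCAAT in either orientation and, in *Cdk1*, also the E2F match at −133. In *Mki67* the CHR nearer to the start shares letters with a CCAAT box.
Cdk1: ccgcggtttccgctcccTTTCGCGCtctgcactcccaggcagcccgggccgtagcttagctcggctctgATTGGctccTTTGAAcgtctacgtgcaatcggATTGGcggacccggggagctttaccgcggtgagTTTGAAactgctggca
Ccnb1: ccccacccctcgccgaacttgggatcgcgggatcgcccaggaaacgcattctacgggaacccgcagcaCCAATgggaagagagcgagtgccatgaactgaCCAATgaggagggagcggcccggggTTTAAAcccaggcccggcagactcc
Top2a: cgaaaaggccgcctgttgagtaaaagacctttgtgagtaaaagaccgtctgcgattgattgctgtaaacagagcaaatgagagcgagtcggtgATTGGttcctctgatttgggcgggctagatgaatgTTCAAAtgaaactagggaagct
Plk1: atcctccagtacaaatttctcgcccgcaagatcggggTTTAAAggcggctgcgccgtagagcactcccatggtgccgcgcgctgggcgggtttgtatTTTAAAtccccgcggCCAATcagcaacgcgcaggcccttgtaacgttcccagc
Mki67: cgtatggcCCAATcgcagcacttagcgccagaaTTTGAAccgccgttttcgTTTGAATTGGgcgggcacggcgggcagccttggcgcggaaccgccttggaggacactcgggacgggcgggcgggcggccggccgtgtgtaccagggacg

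**Figure D1:**
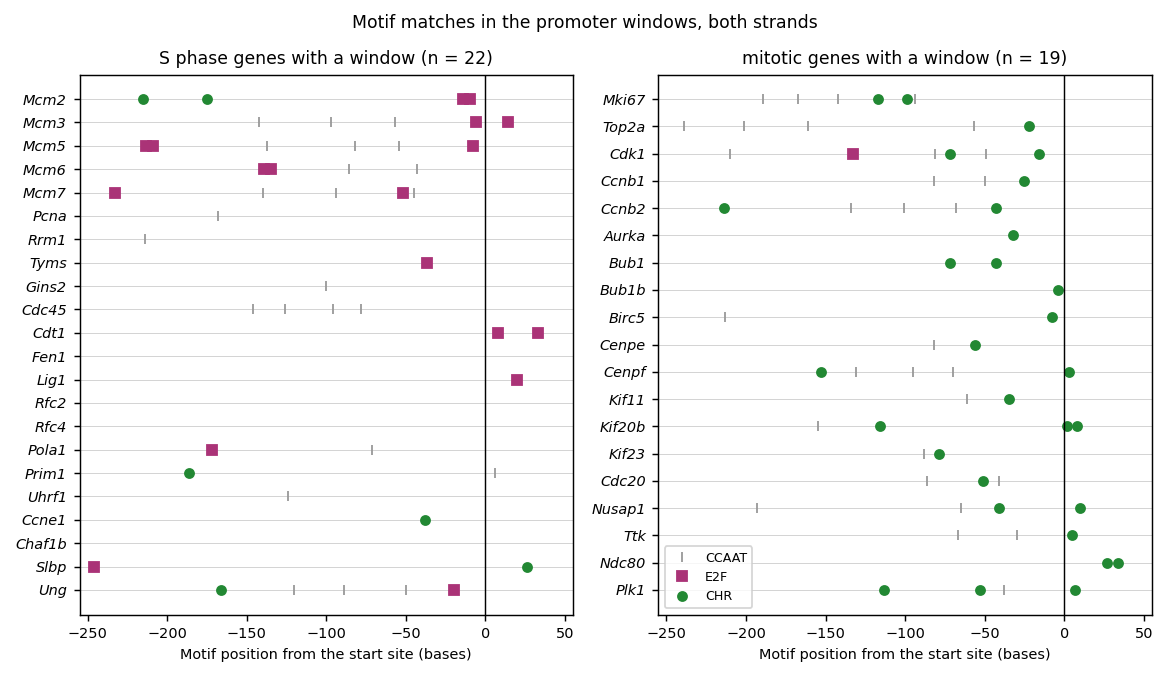
Position of E2F (squares), CHR (circles) and CCAAT (ticks) matches in bases from the annotated start (vertical line) in the promoter windows of 22 S phase genes (left) and 19 mitotic genes (right). E2F matches appear in 11 of the S phase windows drawn and in *Cdk1*, and every mitotic gene holds a CHR, with 25 of the 30 matches between 100 bases before and 50 bases after the start. *Uhrf1* is drawn by 1 of its 3 windows, and its 2 E2F matches lie in another.

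The replication and mitosis genes were well expressed after 2 days of BMP4. All 49 had a mean of at least 1 TPM and entered the test, and single values ran from 13.0 TPM (*Pola1*) to 422 TPM (*Pcna*). The median of the 49 genes in a sample stood between percentiles 79.4 and 82.3 of the genes above 0 TPM. The 27 S phase genes together summed to 2470, 2417 and 2638 TPM with siControl and to 2491, 2268 and 2621 TPM with siDerl1. The 22 mitotic genes summed to 2565, 2293 and 2538 TPM with siControl and to 2709, 2324 and 2426 TPM with siDerl1. In bulk RNA, a larger share of cycling cells and more RNA per cycling cell cannot be told apart.

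Most genes varied little over the samples. The ratio of the highest to the lowest of the 6 values had a median of 1.25, was under 1.5 for 45 of the 49 genes and was highest for *Gins2*, at 1.86. The plot of levels by sample shows that siControl and siDerl1 points of nearly every gene are interleaved.

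**Figure D2:**
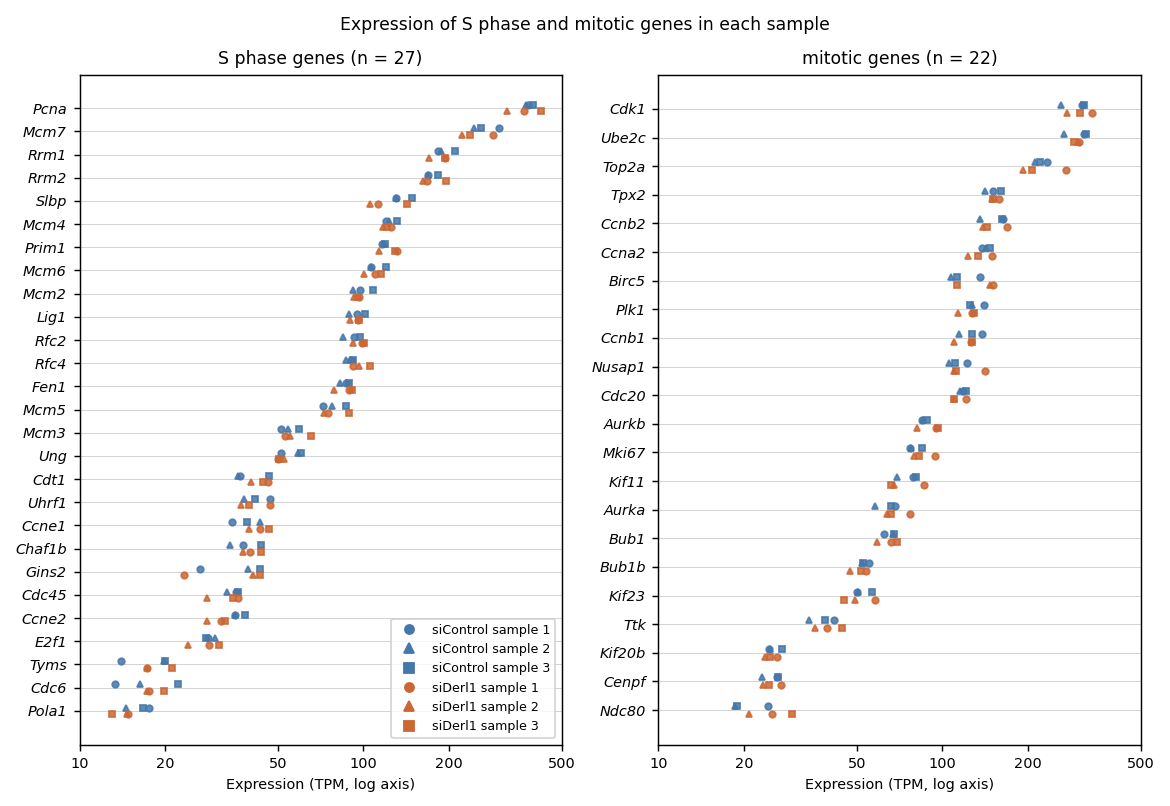
Expression (TPM, log axis) of 27 S phase genes (left) and 22 mitotic genes (right) in 6 samples, with siControl in blue and siDerl1 in orange and a symbol shape for each sample number. Levels span 13.0 to 422 TPM, and in only 1 gene (*Ccne2*) do the siControl and siDerl1 samples not overlap.

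The first comparison asked whether the transcripts of the replication and mitosis genes differed between siDerl1 and siControl NSCs under BMP4. None of the 27 S phase genes and none of the 22 mitotic genes passed an adjusted p of 0.05 in limma. All genes gave the same count, 0 of 10331 tested (0%), with 692 genes (6.7%) under an unadjusted p of 0.05. Among the 49 genes, 1 was under that unadjusted limit, *Ccne2*, and adjusted p ran from 0.713 to 0.999.

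The differences were small. They ran from −0.23 (*Ccne2*) to 0.27 (*Ndc80*) on the log2(TPM + 1) scale, and their median size without sign was 0.062, against 0.096 over all genes tested. The median expression of the 49 genes was between percentiles 79.4 and 82.3 of genes above 0 TPM. Genes of matched expression were not compared, so the smaller size is not shown to be particular to the 49. The 95% interval of the difference lay within 1.5-fold in either direction for 47 of the 49 genes. The exceptions were *Gins2* (−0.67 to 0.59) and *Ndc80* (−0.10 to 0.65). Standard errors ran from 0.063 to 0.27.

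The S phase genes had a median difference of −0.029, with 10 of 27 above 0, and the mitotic genes one of −0.012, with 9 of 22 above 0, beside −0.016 and 45.2% above 0 for all genes tested. With median-of-ratios scaling the S phase and mitotic medians became −0.014 and 0.0037. The S phase median moved to 0.039 without siDerl1 sample 2 and to 0.028 without siControl sample 3. The mitotic median moved to 0.035 without siDerl1 sample 2, to 0.020 without siControl sample 1, to 0.017 without siControl sample 3 and to 0.0081 without siDerl1 sample 3, so neither median kept its sign.

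**Figure D3:**
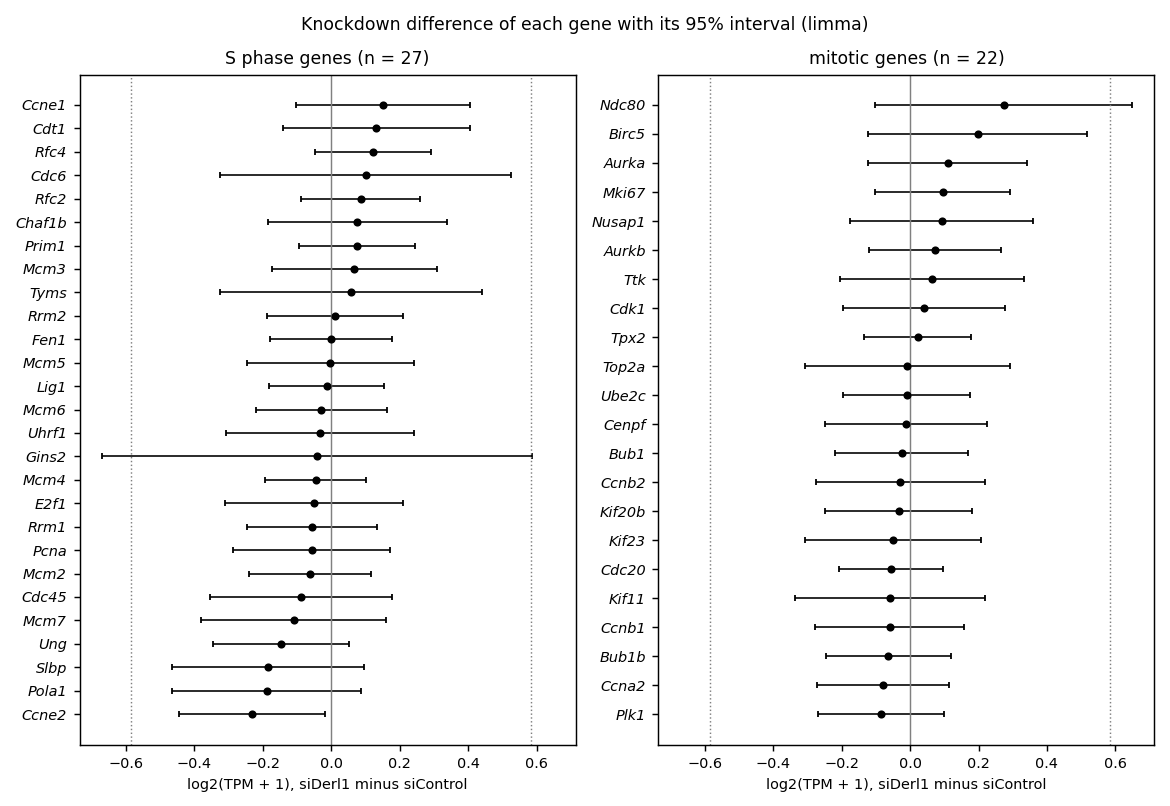
Difference of siDerl1 minus siControl on the log2(TPM + 1) scale (points) with its 95% interval from limma (bars) for 27 S phase genes (left) and 22 mitotic genes (right), with dotted lines at a 1.5-fold change. Of all 49 intervals, 47 lie between the dotted lines.

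Among genes that build the helicase, *Mcm2*, a subunit of the ring, stood at 97.6, 92.2 and 108 TPM with siControl and at 96.9, 92.3 and 95.5 TPM with siDerl1. *Mcm7*, another subunit, stood at 302, 245 and 259 TPM with siControl and at 287, 222 and 238 TPM with siDerl1. For both genes the groups overlapped, with differences of −0.062 ± 0.075 and −0.11 ± 0.12 (SE). *Gins2*, which joins the helicase when origins fire, stood at 26.5, 39.1 and 43.4 TPM with siControl and at 23.3, 40.8 and 43.2 TPM with siDerl1. Its difference was −0.042 ± 0.27, and in both groups sample 1 was the lowest. Across the 10 licensing and helicase genes, which also include the ring subunits *Mcm3*, *Mcm4*, *Mcm5* and *Mcm6*, the loaders *Cdc6* and *Cdt1* and the cofactor *Cdc45*, differences ran from −0.11 to 0.13.

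*Pcna*, the sliding clamp of the polymerases, was the most abundant S phase gene, at 379, 373 and 397 TPM with siControl and at 367, 322 and 422 TPM with siDerl1. Its siDerl1 samples included both the lowest and the highest value, and the difference was −0.058 (95% interval −0.29 to 0.17; adjusted p = 0.948, limma). *Rfc4*, a subunit of the clamp loader, stood at 90.7, 86.6 and 92.2 TPM with siControl and at 92.1, 96.3 and 105 TPM with siDerl1, a difference of 0.12 ± 0.072 (adjusted p = 0.782, limma). The groups overlapped only in that siDerl1 sample 1 was below siControl sample 3.

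*Rrm1*, the large subunit of ribonucleotide reductase, stood at 183, 188 and 210.0 TPM with siControl and at 194, 171 and 194 TPM with siDerl1. *Tyms*, which makes thymidylate, stood at 14.0, 19.8 and 19.97 TPM with siControl and at 17.2, 17.3 and 21.1 TPM with siDerl1. Neither gene separated the groups, with differences of −0.057 ± 0.081 and 0.058 ± 0.16. *Ung*, which removes uracil from DNA, stood at 51.1, 58.6 and 60.1 TPM with siControl and at 49.8, 52.7 and 50.3 TPM with siDerl1, a difference of −0.15 ± 0.084 (adjusted p = 0.773, limma). Its siDerl1 values were below siControl samples 2 and 3 but not all below sample 1.

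The regulators of entry into S phase held the gene with the smallest p. *Ccne2*, a cyclin E, stood at 35.3, 35.2 and 38.2 TPM with siControl and at 31.5, 28.1 and 32.7 TPM with siDerl1. All 3 siDerl1 values were below all siControl values, as in 8.52% of the genes tested, and no S phase or mitotic gene had all siDerl1 values above, as did 5.09% of the genes tested. The difference of *Ccne2* was −0.23 (95% interval −0.45 to −0.017) with an unadjusted p of 0.0378 and an adjusted p of 0.713 in limma, and its exact two-sided permutation p was 0.1, the smallest that 3 against 3 samples allow. The number of S phase genes under an unadjusted p of 0.05 was 0 without siControl sample 2, siDerl1 sample 1 or siDerl1 sample 2, and 2 without siDerl1 sample 3. Shares of all genes in these settings are not given here.

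The other cyclin E gene did not share that order. *Ccne1* stood at 34.4, 43.1 and 38.9 TPM with siControl and at 43.2, 39.6 and 46.6 TPM with siDerl1, a difference of 0.15 ± 0.11. *E2f1*, the transcription factor of S phase entry, stood at 28.4, 29.9 and 27.9 TPM with siControl and at 28.5, 24.1 and 31.0 TPM with siDerl1, a difference of −0.050 ± 0.11. Both had overlapping groups.

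Of the mitotic genes, the proliferation marker *Mki67*, which coats mitotic chromosomes, stood at 77.0, 77.7 and 84.8 TPM with siControl and at 94.0, 79.6 and 82.8 TPM with siDerl1. *Top2a*, which untangles chromosomes, stood at 235, 213 and 222 TPM with siControl and at 273, 192 and 208 TPM with siDerl1. Their differences were 0.095 (95% interval −0.10 to 0.29) and −0.0082 (−0.31 to 0.29), and for *Top2a* siDerl1 held both the highest and the lowest samples.

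*Cdk1*, the kinase that starts mitosis, stood at 312, 263 and 317 TPM with siControl and at 338, 276 and 305 TPM with siDerl1. Its cyclin *Ccnb1* stood at 139, 114 and 127 TPM with siControl and at 126, 110.5 and 128 TPM with siDerl1. In both groups sample 2 was the lowest for each gene, and the differences were 0.042 ± 0.10 and −0.060 ± 0.093. *Plk1*, a kinase of mitotic entry and spindle assembly, stood at 141, 127 and 125 TPM with siControl and at 127, 114 and 129 TPM with siDerl1, a difference of −0.086 ± 0.078.

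*Ube2c*, which passes ubiquitin to the anaphase promoting complex, stood at 316, 268 and 322 TPM with siControl and at 304, 300.2 and 292 TPM with siDerl1. The siDerl1 values all fell inside the siControl range, and the difference was −0.010 ± 0.079. *Nusap1*, a protein of spindle microtubules, stood at 122.7, 105 and 111 TPM with siControl and at 142, 109.6 and 112 TPM with siDerl1, a difference of 0.092 ± 0.11.

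The mitotic genes with the largest differences were both higher on average with siDerl1 but overlapped between groups. *Ndc80*, which ties kinetochores to microtubules, stood at 24.4, 18.6 and 19.0 TPM with siControl and at 25.2, 20.9 and 29.6 TPM with siDerl1, a difference of 0.27 ± 0.16 (adjusted p = 0.778, limma). *Birc5*, the survivin of the chromosomal passenger complex, stood at 136, 108 and 113 TPM with siControl and at 151, 148 and 113 TPM with siDerl1, a difference of 0.20 ± 0.14 (adjusted p = 0.828, limma). In *Birc5*, siDerl1 sample 3 matched siControl sample 3 to within 1 TPM. With single samples left out, the difference of *Ndc80* ran from 0.16 (without siDerl1 sample 3) to 0.40 (without siDerl1 sample 2) and that of *Birc5* from 0.12 (without siDerl1 sample 1) to 0.33 (without siDerl1 sample 3).

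Because samples with the same number deviated together, the comparison was also made with the sample number as a replicate block. This paired fit called 57 of all genes (0.552%) and 0 of the 49 genes described here, of which the lowest adjusted p was 0.208 (*Slbp*, limma). Under an unadjusted p of 0.05 it held 15.7% of all genes and 4 of the 49. These were *Ccne2*, *Slbp* and *Mcm7*, all lower with siDerl1, and *Birc5*, higher with siDerl1. *Slbp*, which binds the ends of histone mRNAs, was looked at after its values were seen, and stood at 130.4, 129.9 and 149 TPM with siControl and at 113, 106 and 143 TPM with siDerl1. Its siDerl1 value was below the siControl value of the same number in each of the 3 pairs.

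The remaining genes gave no larger differences. The joining enzymes *Fen1* and *Lig1* differed by −0.0014 and −0.014, and *Pola1* and *Prim1*, the polymerase and the primase that start new strands, by −0.19 and 0.074. *Rfc2*, another subunit of the clamp loader, and *Rrm2*, the small subunit of ribonucleotide reductase, differed by 0.086 and 0.011. *Chaf1b*, of the histone chaperone that follows replication forks, and *Uhrf1*, which keeps DNA methylation on new strands, differed by 0.077 and −0.033. The aurora kinases *Aurka* and *Aurkb* differed by 0.11 and 0.073, and the spindle checkpoint genes *Bub1*, *Bub1b* and *Ttk* by −0.025, −0.064 and 0.064. The cyclins *Ccna2* and *Ccnb2* differed by −0.079 and −0.029, and *Cdc20*, the activator of the anaphase promoting complex, by −0.056. The kinesins *Kif11*, *Kif20b* and *Kif23* differed by −0.059, −0.033 and −0.050, the spindle assembly factor *Tpx2* by 0.022 and the kinetochore protein *Cenpf* by −0.013.

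The balance of S phase to mitotic transcripts overlapped between the siRNA groups. The summed TPM of the S phase genes was 2509 ± 116 with siControl and 2460 ± 178 with siDerl1 (SD, n = 3), and that of the mitotic genes 2465 ± 150 and 2486 ± 199. The mitotic sum over the S phase sum was 1.04, 0.949 and 0.962 with siControl and 1.09, 1.02 and 0.925 with siDerl1, or 0.983 ± 0.0487 and 1.01 ± 0.0816. In each quantity the means differed by less than the SD of either group.

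**Figure D4:**
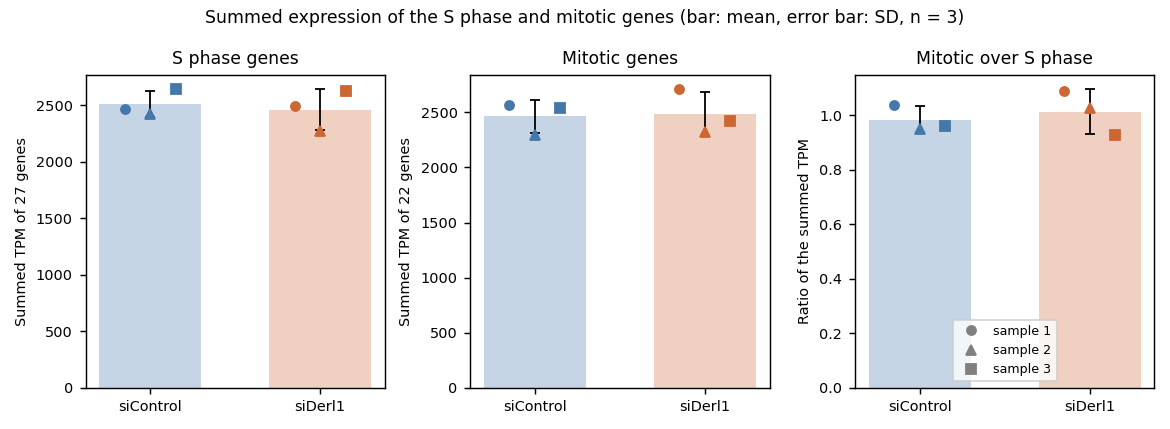
Summed TPM of 27 S phase genes and of 22 mitotic genes, and the ratio of the mitotic to the S phase sum, in each sample (symbols by sample number), with the group mean (bar) and SD (error bar, n = 3). The group means differ by less than 1 SD in all 3 panels, and the ratio is highest in sample 1 of each group (1.04 and 1.09).

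The second comparison asked whether the genes differed between sample numbers over both siRNA groups. Sample number was a large source of variation in these data: the first principal component, which set both samples numbered 1 apart from the others, held 55.7% of the variance, and an F test of sample number in limma called 1092 of 10331 genes (10.6%) at an adjusted p of 0.05. Of the 49 genes it called 3, the S phase genes *Gins2* and *Mcm7* and the mitotic gene *Cdk1*. Adjusted p was 0.00307 for *Gins2*, 0.0131 for *Mcm7* and 0.0466 for *Cdk1*. That share was below the 10.6% of all genes. It was above the share of all genes without siControl sample 1 (4 S phase and 5 mitotic genes called, beside 1594 of all 10331) and without siControl sample 2 (4 and 2, beside 1123).

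*Gins2* had the largest difference by number of the 49 genes. Its mean was 24.9 TPM in the samples numbered 1 and 41.6 TPM in those numbered 2 and 3, a difference of −0.72 on the log2(TPM + 1) scale. *Mcm7* went the other way, with 294 TPM against 241 TPM and a difference of 0.29, although both genes belong to the same helicase. *Cdk1* stood at 325 TPM against 290.3 TPM, a difference of 0.16, with the lowest value in sample 2 of both groups. None of these calls was made when limma was fitted without its intensity trend (adjusted p of 0.0524, 0.166 and 0.266 in the order *Gins2*, *Mcm7*, *Cdk1*), and *Cdk1* was not called with no filter on low values (0.0990), nor without siControl sample 2 (0.258), siControl sample 3 (0.0744), siDerl1 sample 2 (0.159) or siDerl1 sample 3 (0.0566).

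The values of the mitotic genes leaned to sample number 1. Because earlier results of these data had set number 1 apart, this contrast is a description with no test. The difference of number 1 from the mean of numbers 2 and 3 was above 0 for 21 of 22 mitotic genes (median 0.11) and for 11 of 27 S phase genes (median −0.013), beside 48.7% of all genes tested (median −0.0058). The exception among the mitotic genes was *Bub1*, a spindle checkpoint kinase, at −0.032. The mitotic differences were at most 0.28 (*Top2a*). Of further genes, 38 of 56 mitosis genes (67.9%, median 0.069) and 26 of 43 replication genes (60.5%, median 0.030) were above 0.

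The lean was present in both siRNA groups but was not the same in size. Within siControl the mitotic median was 0.090 with 16 of 22 genes above 0, and within siDerl1 it was 0.16 with 21 of 22 above 0. The S phase medians were −0.055 (7 of 27 above 0) and 0.040 (16 of 27), while over all genes tested they were −0.023 (4716 genes above 0) and 0.012 (5401). For *Top2a* the difference was 0.11 in siControl and 0.45 in siDerl1, and for *Mki67* it was −0.074 and 0.21. For *Birc5* it was 0.30 and 0.22, so the order of the groups was not the same in every gene. Differences between the 2 siRNA groups in this contrast were not tested.

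Some genes separated the samples numbered 1 from the others completely. Both samples numbered 1 lay above the other 4 samples in 5 of 22 mitotic genes, a share above the 15.7% of all genes tested, and in 2 of 27 S phase genes, a share below it. They lay below the others in 0 of 22 mitotic and 3 of 27 S phase genes, both under the 17% of all genes tested. The mitotic genes were *Top2a*, *Nusap1*, *Ccnb2*, *Aurka* and *Bub1b*. The S phase genes were *Mcm7* and *Uhrf1* above, and *Gins2*, *Tyms* and *Mcm3* below.

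Other transcripts, cell type markers among them, also differed by sample number. The 12 interferon-induced genes of a list read for this purpose summed to 85.2 and 91.3 TPM in the samples numbered 1 of siControl and siDerl1, to 851 and 866 TPM in siControl samples 2 and 3, and to 1625 and 1550 TPM in siDerl1 samples 2 and 3. All 12 were called by the F test of sample number. The F test also called all 4 astrocyte markers tested (2 higher and 2 lower in number 1), 5 of 8 NSC markers (2 higher and 3 lower) and 1 of 5 oligodendrocyte lineage markers tested, and all 5 of the last were higher in number 1 (median 0.26). The astrocyte marker *S100b* stood at 679 and 708 TPM in the samples numbered 1 and at 445 to 467 TPM in the others, and the NSC marker *Sox9* at 7.50 and 9.42 TPM against 34.7 to 38.3 TPM. The part of these transcripts in the differences of the replication and mitosis genes was not tested. Without both samples numbered 1, 33 of all 10331 genes were called between siDerl1 and siControl, and 0 of the 49.

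**Figure D5:**
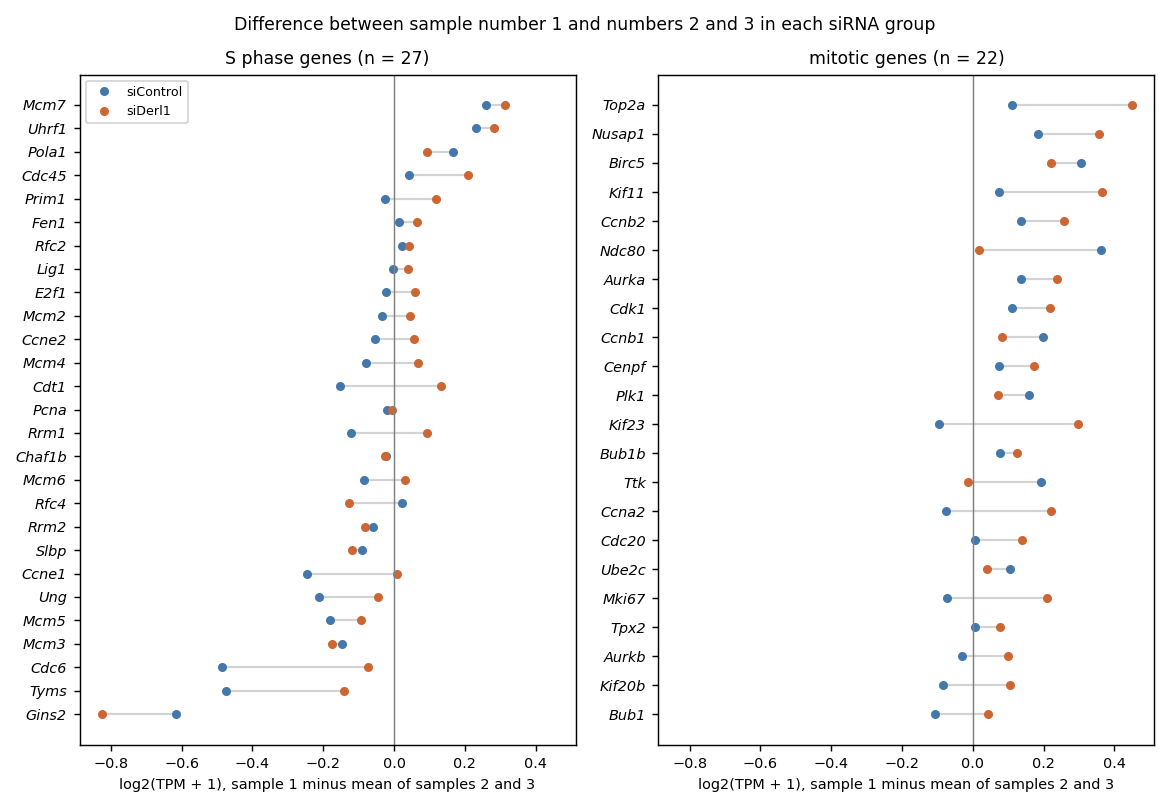
Difference of sample number 1 from the mean of numbers 2 and 3 on the log2(TPM + 1) scale within siControl (blue) and within siDerl1 (orange) for 27 S phase genes (left) and 22 mitotic genes (right). The S phase genes spread on both sides of 0 with *Gins2* farthest below, and most mitotic points lie above 0.

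Further genes of the same pathways also gave no calls in the siRNA comparison. Of 43 more replication genes tested, 0 were called between siDerl1 and siControl and 0 were under an unadjusted p of 0.05, and their median difference was 0.0055. Of 56 more mitosis genes tested, 0 were called and 0 were under that limit, with a median of −0.011. By sample number, 3 of the 43 and 3 of the 56 were called, both shares below the 10.6% of all genes. They included *Rpa1*, which covers single-stranded DNA, with 92.6, 117 and 117 TPM in siControl and 84.1, 104 and 107 TPM in siDerl1 (F test adjusted p = 0.0188, limma). Like *Gins2*, it was lowest in sample 1 of each group. In the promoter windows of these lists, an E2F match was present in 19 of 39 replication genes and 2 of 59 mitosis genes, and a CHR match in 8 of 39 and 44 of 59 (74.6%).

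Of the regulators that act on these promoters, 14 E2F, RB and DREAM genes were tested and 0 were called, with 1 under an unadjusted p of 0.05. This was *E2f6*, a repressor of the E2F family, at 22.9, 28.3 and 23.5 TPM with siControl and 31.5, 29.0 and 34.9 TPM with siDerl1, a difference of 0.34 ± 0.12 (adjusted p = 0.704, limma). All its siDerl1 values were above all siControl values. That held for 3 of the 14, *Tfdp1*, an E2F partner, among them (0.12 ± 0.067, adjusted p = 0.772, limma), beside 5.09% of all genes tested. In 3 others, such as the repressor *E2f7* (−0.21 ± 0.11, adjusted p = 0.764, limma), all siDerl1 values were below, beside 8.52% of all genes. Of 9 further regulators of the cell cycle (kinases, the phosphatase *Cdc25a*, kinase partners such as *Ccnh*, and others such as *Fzr1*), 0 were called and 1 was under the unadjusted limit. This was *Pkmyt1*, a kinase that holds Cdk1 inactive, at 26.4, 25.1 and 27.6 TPM with siControl and 37.9, 34.0 and 33.6 TPM with siDerl1, a difference of 0.40 ± 0.090 (adjusted p = 0.669, limma). Its groups did not overlap either, 1 of the 9 with siDerl1 above beside 1 with siDerl1 below (*Cdc25a*), and its adjusted p was 0.0916 in limma with the replicate block.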

How the data were processed

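RNA-seq of 6 samples (3 siControl, 3 siDerl1) was used. Reads had been end-trimmed (Trimmomatic 0.39) and aligned to rn6 (STAR 2.7.3a), and the authors obtained expression values with RSEM (1.3.2), per the submitters' processing notes and the study's methods. The values they deposited are TPM, which sum to 1000000 in each sample, with 5.21% to 5.64% in the 10 most abundant genes. RSEM divides reads shared by related genes, so such genes are uncertain. Groups and sample numbers were taken from the sample titles, and members by symbol. Among the genes tested, at most 0.232% of values were equal between any 2 samples.

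log2(TPM + 1) of the 10331 genes that averaged 1 TPM or more was fitted with limma (3.58.1, R 4.3.3; lmFit, eBayes with an intensity trend) on siRNA group, with Benjamini-Hochberg adjustment over all genes tested. Fold changes on this scale understate the change of low genes. A second fit held the sample number and the group, with an F test of the number. The sample number paired the groups: deviations of same-numbered samples from their group means correlated at 0.697, 0.353 and 0.507. Samples numbered 2 and 3 also correlated with each other across groups (0.345 and 0.248), and number 1 against the other numbers ran from −0.591 to −0.409. Genes were named where they were common markers, or in the S phase or mitotic genes among the 3 with the highest mean, the smallest p between siRNA groups or the largest difference of number 1 (20 genes); others are given as ranges or in a clause, and *Slbp*, *Bub1*, *Uhrf1*, *Mcm3*, *Ccnb2*, *Aurka* and *Bub1b* were named after their values were seen. Of the further lists, the 3 genes with the smallest p or largest difference by number could be named. The members and lists were chosen with earlier results of these data known. The fits were also run on simulated data. Those used for the siRNA comparison held no effect of sample number, so they do not show how that fit performs here. Promoter windows come from RefSeq tables of GRCr8, a build other than that of the reads, and were used for sequence alone. Alternatives were a pseudocount of 0.1, no filter, a limit of 5 TPM on the mean, scaling by median-of-ratios factors, no trend, the replicate block, and leaving out each sample or both samples numbered 1. Combinations of the block with other settings were chosen after seeing the data.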

Additional observations from a re-analysis of the deposited data

How the results depend on the processing

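No S phase or mitotic gene was called between siDerl1 and siControl under any alternative run. Over all genes, that comparison called 57 with the replicate block, 2 with the replicate block and no filter on low values, 33 without both samples numbered 1, and 397 without both and with the block. S phase genes under an unadjusted p of 0.05 numbered 3 with the block, 3 with the block and no filter, 2 without both samples numbered 1, 6 without both and with the block, and 0 to 2 when single samples were left out. Mitotic genes numbered 1, 0, 1, 3 and 0 to 1 in the same order. With the block, 15.7% of all genes tested were under that limit. Shares of all genes in the other settings are not given here, so these counts cannot be read as an excess. The sample number called 591 genes with no filter, 252 with no trend, and 608 (without siDerl1 sample 3) to 1594 (without siControl sample 1) when single samples were left out. S phase genes called by number were 0 with no trend and 2 to 5 with single samples left out, with 4 without siControl sample 1 or 2 and 5 without siDerl1 sample 1. Mitotic genes called by number were 0 with no filter, 0 with no trend, 5 without siControl sample 1, 2 without siControl sample 2 and 0 without siControl sample 3 or siDerl1 sample 3. The cause of these changes was not tested. The S phase median between siRNA groups ran from −0.067 to 0.039 and the mitotic median by number from 0.090 to 0.16 when single samples were left out. Differences near 0 changed sign: *Top2a* (0.0073) and *Ube2c* (0.0055) with median-of-ratios scaling, and *Tyms* (−0.053), *Gins2* (0.027) and *Ube2c* (0.011) without both samples numbered 1, with or without the block. With single samples left out, the ranges were −0.11 to 0.00044 for *Mcm2*, −0.16 to 0.039 for *Pcna*, −0.10 to 0.0041 for *Rrm1*, −0.10 to 0.14 for *Tyms*, −0.25 to 0.23 for *Gins2*, −0.13 to 0.048 for *E2f1*, −0.16 to 0.095 for *Top2a*, −0.044 to 0.11 for *Cdk1*, −0.13 to 0.0068 for *Ccnb1*, −0.094 to 0.039 for *Ube2c* and −0.027 to 0.16 for *Nusap1*. By number, 16 values of single genes moved by more than the SD of the gene's differences within the 2 siRNA groups when single samples were left out. *Birc5* ran from 0.17 to 0.36, *Pcna* from −0.071 to 0.045, *E2f1* from −0.076 to 0.11 and *Ube2c* from 0.0065 to 0.14. The F test of limma called *Birc5* without siControl sample 2 (adjusted p = 0.0184) or siDerl1 sample 2 (0.0167), *Top2a* without siControl sample 1 (0.00039, with its difference at 0.45 in place of 0.28) or siControl sample 2 (0.0303), *Nusap1* without siControl sample 1 (0.0147), and *Pcna* without siControl sample 1 (0.0308), siControl sample 2 (0.0492) or siDerl1 sample 1 (0.0329). Between siRNA groups, *Ndc80* ran from 0.16 to 0.40, *Birc5* from 0.12 to 0.33, *Ccne1* from 0.068 to 0.23, *Rfc4* from 0.068 to 0.16, *Mki67* from 0.025 to 0.14 (0.00047 without both samples numbered 1), *Mcm7* from −0.21 to −0.023 and *Plk1* from −0.12 to −0.028. The other 495 values of single genes kept their direction and call or, by number, moved by less than that SD. For gene groups 132 values held. Among these, counts were equal or within 1.5-fold of the main fit. Medians moved by less than their SD over the 3 same-numbered pairs or, by number, over the 2 siRNA groups. Depth is unknown, and with 4 samples the fit with the block had 1 residual degree of freedom.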

Other observations

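The difference of siDerl1 from siControl was also read within each sample number. In the pair numbered 1, the median over the genes was above 0 for the 27 S phase genes (0.022) and the 22 mitotic genes (0.084), with 18 and 17 genes higher with siDerl1. In the pairs numbered 2 and 3 the medians were −0.064 and −0.054 for the S phase genes and −0.0091 and −0.045 for the mitotic genes, with 10 and 11, and 11 and 8, genes higher. The further lists gave the same signs, with 0.11, −0.023 and −0.020 for the 43 replication genes and 0.10, −0.071 and −0.031 for the 56 mitosis genes, and so did all genes tested, with 0.0089, −0.027 and −0.033. Each pair is 1 sample against 1 sample, and the differences between pairs were not tested.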
